A study of Rattus norvegicus with 4 samples.

Results

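The strongest domain boundaries of cultured rat Schwann cells were taken as the 1000 sharpest minima of insulation on chromosomes 1 to 20, out of 44263 local minima, or 2.26% of them. They were selected on measured values. The contacts of 4 Hi-C libraries were summed at 10 kb, and for every bin the mean number of contacts between the 20 bins (200 kb) to its left and the 20 bins to its right was divided by the mean of the chromosome and put on a log2 scale. This value is called insulation here, and a lower value means that fewer contacts cross the bin. Minima whose windows held at least 100 contacts were ranked by prominence, the height to which insulation rises on both sides before a deeper minimum is met, and the top 1000 were kept. Their prominence, insulation and rank in the sum are therefore given as a description, with no test. Only differences between the groups of libraries were tested.

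In Hi-C, DNA ends that lie near each other in fixed nuclei are joined and sequenced, and a read pair counts as 1 contact between the places its ends came from. Primary Schwann cells from rat sciatic nerve, grown with forskolin and heregulin, were exposed to virus, at 2 viral units per cell, for 48 hours. The Lenti-AS group received a virus carrying the antisense RNA of the Egr2 promoter (Egr2-AS), and the Lenti-GFP group received the backbone virus with GFP. Both groups therefore carry a lentivirus, and uninfected cells were not analysed here. The methods name a DsRed vector for the antisense RNA and an AcGFP vector for the control, so that the viruses were built on vectors with different fluorescent proteins. Each group had 2 libraries, named here by the numbers 1 and 2 of the sample titles, which the descriptions give as 2 and 3 in that order. The labels describe them as independent samples, without saying whether they came from separate animals, so that a p-value here covers the spread between libraries only. Strain, sex and age of the rats are not given in the sources used here, and Hi-C contacts hold no marker genes with which the cell type could be checked. The libraries held between 70488877 and 110770015 contacts, and both Lenti-AS libraries were shallower than both Lenti-GFP libraries.

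Mammalian chromosomes fold into domains whose DNA contacts itself more than it contacts the neighbouring domain. The cohesin ring is known to extrude loops of chromatin and to be halted at sites bound by CTCF, and such sites lie at many domain boundaries. On a larger scale, active and inactive chromatin keep apart in compartments, and a boundary can also mark the place where a chromosome passes from one compartment into the other. In Schwann cells, Egr2 drives myelination, and its antisense RNA was studied for its effect on this folding. Genes and CTCF motifs at the boundaries were not analysed here, because no annotation or genome of the build of the files was given, and no sequence is printed for the same reason.

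The 1000 boundaries were found on all 20 numbered chromosomes, from 20 on chromosome 20 to 128 on chromosome 1. Per 10 Mb of used bins their number ran from 3.11 on chromosome 13 to 6.05 on chromosome 12, with chromosomes 17, 1 and 7 at 5.81, 5.43 and 5.40. Within 3 Mb of a chromosome end there were 38 boundaries (3.8%), beside 4.05% of all bins. Neighbouring boundaries were a median of 1835 kb apart, with quartiles of 980 and 3350 kb. The next 1000 minima by prominence were 1790 kb apart, close to the same spacing. Both lists hold 1000 places on the same chromosomes, and this fixed number largely sets the spacing. Neither the spacing nor the match is therefore a measure of domain size.

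The shortest gap between neighbouring boundaries was 170 kb, on chromosome 17 between the bins starting at 18980001 and 19150001. It was the only gap of at most 200 kb among 980. The longest was 16740 kb, on chromosome 2 between the bins starting at 157740001 and 174480001. Gaps of over 2 Mb made up 46.1% of all gaps (452 of 980), and 117 gaps were over 5 Mb. Another member of the list lay within 1 Mb of 446 boundaries (44.6%).

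Some bins near the boundaries could not be used. A bin was used when its cis contacts, those within its own chromosome, reached 0.25 of the median bin, which held 2181. A left-out bin stood in the window of 688 boundaries, while 312 had none; among all 230204 bins with an insulation value, 59.8% had a left-out bin in their window, beside 68.8% of the boundaries. The windows of the boundaries held a median of 820 contacts in the sum of the libraries, with quartiles of 431 and 1139, beside a median of 2993 over all bins. Their insulation had a median of -1.89, beside -0.10 over all bins and -1.16 over the next 1000 minima. It ran from -5.30 to 0.088. The highest value was that of chr1:55770001-55780000, with 14 left-out bins, where crossing contacts were not below the chromosome mean. Prominence ran from 2.225 to 6.32, with a median of 2.76. The last boundary on the list, chr9:96320001-96330000, had a prominence of 2.225, and the minimum just outside it, chr6:92890001-92900000, had 2.2248, so that nothing separates the list from what follows it.

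The boundaries were next set apart by the contacts that pass directly over the bin. These contacts lie inside the windows that chose the boundaries, so they are no check of the name domain boundary. For each boundary, contacts between used bins 20 to 50 kb apart on either side of it were divided by those expected at the same distance on the chromosome, where at least 6 of the 10 pairs of bins could be used. Among the boundaries with such a value, 657 had at least 0.1 of the expected contacts and 115 had less, and 228 had too few usable pairs. A left-out bin stood in the window of 57.7% of the 657, 70.4% of the 115 and all of the 228. The value of 0.1 was chosen after the data were seen. There were 36 boundaries between 0.02 and 0.05, 22 between 0.05 and 0.1 and 59 between 0.1 and 0.2, and 185 lay between 0.3 and 0.4, the range in which the values piled up.

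The 115 minima short of near contacts had a median of 0.0206 of the expected near contacts, and 57 of them had less than 0.02. For the 657 boundaries with near contacts the median was 0.378. Near contacts lie inside the windows that selected the boundaries, so that low values among them, and their rank by prominence, follow in part from the choice and are given as a description. Below 0.1 there were also 24 of the next 1000 minima and 0.263% of all bins. The minima short of near contacts were 48 of the 100 boundaries of highest prominence, 36 of the following 200 and 31 of the remaining 700. By chromosome they ranged from 0 of 51 boundaries on chromosome 8 and 2 of 71 on chromosome 3 to 17 of 88 on chromosome 2 and 5 of 20 on chromosome 20.

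**Figure D1:**
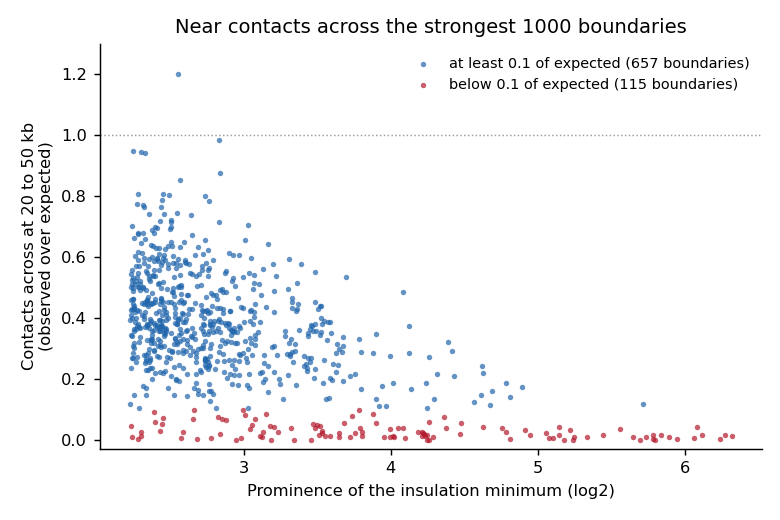
Each point is a boundary, with its prominence on the x axis (log2) and its contacts across at 20 to 50 kb over those expected on the y axis; 228 boundaries with too few usable pairs are not drawn. The 115 minima below 0.1 of expected (red) spread to the highest prominence, while most of the 657 others (blue) lie below a prominence of 3, their upper quartile being 2.99.

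All 10 members of the list with the highest prominence and no left-out bin in their window were minima short of near contacts. The leading one, chr1:275970001-275980000, had a prominence of 6.32 and 0.0128 of the expected near contacts. It was followed by chr17:21760001-21770000 (prominence 6.24, near contacts 0.00255 of expected) and chr1:185030001-185040000 (6.06 and 0.00514). At chr10:63610001-63620000 and chr7:62830001-62840000 no near contact was counted at all in the sum of the libraries. The other 5 were chr4:123560001-123570000, chr20:8120001-8130000, chr3:41440001-41450000, chr15:15670001-15680000 and chr19:52770001-52780000, with between 0.00268 and 0.0165 of the expected near contacts.

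These minima were low in each library taken alone. At chr1:275970001-275980000 insulation was -4.12 in Lenti-GFP 1, -4.45 in Lenti-GFP 2, -4.67 in Lenti-AS 1 and -5.15 in Lenti-AS 2. At chr17:21760001-21770000 the values were -5.15, -5.68, -5.31 and -4.86 in the same order. The groups did not overlap at the former (edgeR adjusted p = 0.0768 in the test of crossing contacts described further on) and overlapped at the latter. At chr20:8120001-8130000 insulation was -5.33, -5.36, -4.83 and -4.37, without overlap and higher in Lenti-AS (log2 fold change 0.76, edgeR adjusted p = 0.0485, and 0.70 with adjusted p = 0.374 against the flanks). It was the only member of these 10 past the threshold of 0.05. Each of these values rests on few contacts, from 21 to 60 in a library. The 3 members of highest prominence with a left-out bin were also minima short of near contacts: chr15:5040001-5050000, with 11 left-out bins and 0.0137 of the expected near contacts, chr7:42500001-42510000, with 1 and 0.0155, and chr2:118000001-118010000, with 1 and 0.0403.

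Contacts over longer distances separated the 2 kinds of minima further. Across the 657 boundaries with near contacts, the median of observed over expected contacts was 0.378 at 20 to 50 kb, 0.299 at 60 to 200 kb, 0.375 at 210 to 400 kb, 0.570 at 410 kb to 1 Mb and 0.648 beyond 1 Mb and up to 2 Mb. Over all bins the medians at these distances were 0.921, 0.919, 0.914, 0.888 and 0.837, and over the next 1000 minima 0.468, 0.444, 0.550, 0.646 and 0.622. In the median, contacts across the 657 boundaries were thus below those of all bins at every one of these distances. Up to 400 kb this follows wholly or in part from the choice of the boundaries. Beyond 1 Mb their contacts were no lower than those of the next 1000 minima. Across the 115 minima short of near contacts the medians were 0.0206, 0.0792, 0.305, 0.779 and 1.10 at the same distances. In the median, contacts were nearly absent close to these bins and above the expected number beyond 1 Mb. There 61 of the 115 (53.0%) reached the expected value, beside 126 of 657 (19.2%) with near contacts and 40.2% of all bins. The 115 varied at this distance, with a lower quartile of 0.695, and 11 of them were below 0.5 of expected.

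Only the contacts over 400 kb lie outside the windows that chose the boundaries. At 410 kb to 1 Mb, contacts across the minima short of near contacts were below those of all bins (medians of 0.779 and 0.888). Beyond 1 Mb their median was not below that of all bins (1.10 and 0.837), unlike that of the 657 boundaries with near contacts (0.648). Near contacts across them were almost absent, which is how they were set apart and is no separate result. For this, and for their higher median beyond 1 Mb, they are called minima when taken by themselves. The whole list is still called boundaries. The cause of the missing near contacts was not tested. All distances are those of the rn6 build, and whether they hold for these cells at such minima was not tested either. Between 2.1 and 10 Mb the medians were 0.870 across the 657 boundaries with near contacts, 1.02 across the 115 minima and 0.942 over all bins.

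**Figure D2:**
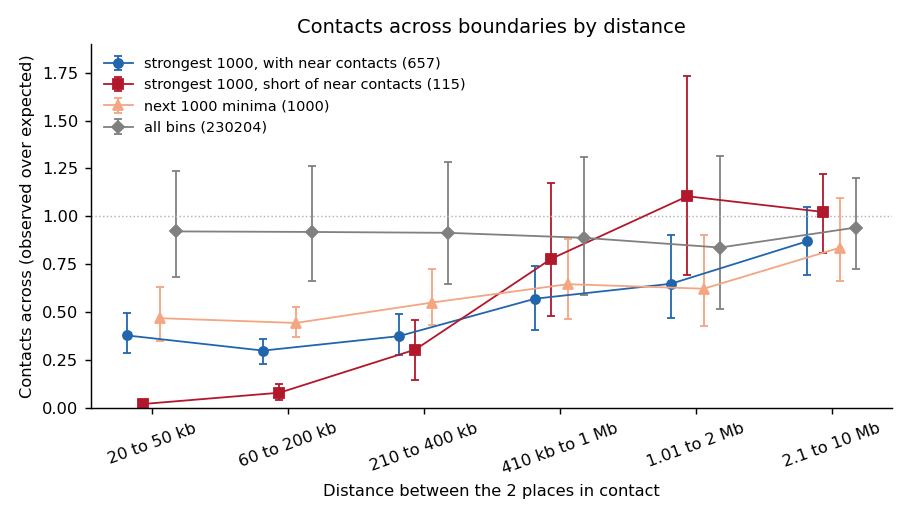
Points are medians of observed over expected contacts across a bin, bars run from the lower to the upper quartile, and the x axis gives the distance between the places in contact; the dotted line marks the expected number. The 115 minima short of near contacts (red squares) rise from 0.0206 to above 1, and the 657 boundaries with near contacts (blue circles) have medians below 1 at every distance.

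Among boundaries with near contacts and no left-out bin, 5 of the highest prominence serve as examples; they were picked after their values were seen. The highest was chr16:24060001-24070000, with a prominence of 4.81 and 0.139 of the expected near contacts. Its insulation was -2.40 in Lenti-GFP 1, -2.18 in Lenti-GFP 2, -2.42 in Lenti-AS 1 and -2.45 in Lenti-AS 2, and its contacts were 0.766 of expected at 410 kb to 1 Mb. At chr3:101010001-101020000, with a prominence of 4.69, insulation was -3.26, -3.08, -3.26 and -2.93 in the same order. The libraries of the groups overlapped there. At chr1:134980001-134990000 (prominence 4.57) the near contacts were 0.123 of expected, and at chr3:61610001-61620000 (4.42) they were 0.293. At the last, chr17:60570001-60580000 (prominence 4.26), insulation was -4.01 and -3.68 with Lenti-GFP but -3.37 and -3.33 with Lenti-AS. The groups did not overlap, and the crossing contacts, tested as described further on, were higher in Lenti-AS (log2 fold change 0.47, edgeR adjusted p = 0.0376, and 0.37 with adjusted p = 0.457 against the flanks).

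As a stand-in for the compartment on either side of each boundary, the leading eigenvector of contacts at least 1 Mb apart was used, in bins of 100 kb. The choice of boundaries did not use these contacts. The mean over 3 bins on each side was compared, for the 943 boundaries with values on both sides. The sign of the eigenvector changed across 323 of them (34.3%), beside 21.1% of the next 1000 minima and 16.3% of all bins. The size of the step across a boundary, in SD units of the chromosome, had a median of 0.56, beside 0.32 for the next 1000 minima and 0.24 over all bins. Bins next to each other share contacts, so these shares are given without a test. The sign was not named A or B, because the eigenvector correlated only weakly with trans contacts, from r = 0.00469 on chromosome 12 to r = 0.365 on chromosome 6 over bins. It held from 12.1% of the variance on chromosome 1 to 31.5% on chromosome 12. Whether it follows compartments on each chromosome was not tested.

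A sign change of the eigenvector was most frequent at boundaries with near contacts. Of these, 251 of 644 (39.0%) had a sign change and the median step was 0.70, while 22 of 107 minima short of near contacts (20.6%) had a sign change, with a median step of 0.34. The latter lay close to the share of the next 1000 minima. A step of at least 1 was found at 248 boundaries with near contacts (38.5%), beside 11.4% of all bins.

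Among the 5 members of the list with the largest step, the minimum at chr2:116490001-116500000 passed from 1.44 on its left to -1.72 on its right and was short of near contacts (0.0346 of expected). At chr19:44270001-44280000 the eigenvector passed from -1.17 to 1.42, and at chr5:113530001-113540000 from -1.17 to 1.32. The near contacts of these were 0.438 and 0.601 of expected, and at the chromosome 5 boundary contacts at 410 kb to 1 Mb were down to 0.108 of expected. At chr18:62730001-62740000 the step ran from -1.37 to 1.11, and at chr16:21520001-21530000 from 1.23 to -1.25. Both had too few usable pairs for a near value, and their contacts at 410 kb to 1 Mb were 0.275 and 0.115 of expected. At the chromosome 2 minimum, contacts were 0.399 of expected at 410 kb to 1 Mb and 1.37 times expected beyond 1 Mb.

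Sign changes were then followed from library to library, and the number of libraries with a change was not counted for all bins. Of 939 boundaries with a value in every library, 296 (31.5%) had a sign change in all 4 and 590 (62.8%) in none, while 15, 20 and 18 boundaries had a change in 1, 2 and 3 libraries. The share in single libraries was 34.3% and 35.2% in Lenti-GFP and 34.1% and 33.7% in Lenti-AS, with group means of 34.8% ± 0.630 (SD over 2 libraries) for Lenti-GFP and 33.9% ± 0.275 for Lenti-AS. From Lenti-GFP to Lenti-AS the share fell by 0.885 percentage points, little more than the SD within Lenti-GFP. Over all bins it fell by 0.105 percentage points, and at the next 1000 minima it was 0.0759 points higher in Lenti-AS. A two-sided exact permutation test gave p = 0.33, the lowest value that 2 against 2 libraries can reach.

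Loop extrusion is known to bring the ends of a domain together, which appears in a contact map as a corner peak. Contacts from the bin of 1 boundary to the bin of the next, 200 kb to 1900 kb away, lie outside the windows of both. They can still enter the choice through the bins between the boundaries. Where both boundaries lie within 200 kb of such a bin, their contacts fall in its window and raise its insulation. Prominence depends on that rise, so for these closer pairs the corner is no independent check. Over all 509 pairs of neighbours 200 kb to 1900 kb apart, contacts in the 3 by 3 bins around the corner were 3.96 times those expected at the same distance. In the corner bin itself they were 5.33 times expected. At 30 to 70 kb from the corner they were 3.03 times expected inside it, 1.3 times outside it, past both boundaries, 1.88 times to the left of both boundaries and 1.19 times to the right of both. For pairs of neighbouring minima among the next 1000, the values were 2.97 and 4.13 over 512 pairs. Single pairs varied widely: 300 of 509 were above expected and 237 reached 2 times expected, while only 20 held 50 contacts or more.

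At boundaries with near contacts, contacts were high in the corner and inside it, and low outside. Over 253 pairs of neighbours among the 657, contacts were 6.75 times expected in the corner bin and 3.41 times expected 30 to 70 kb inside it. Outside it, past both boundaries, they were 0.854 of expected. Among the 115 minima short of near contacts there were 23 such pairs, whose corner bin held 6.99 times the expected contacts, but with 1.2 inside and 2.75 outside, the reverse order. With 385 contacts in the corner bin over 23 pairs, single pairs weigh heavily in these values.

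**Figure D3:**
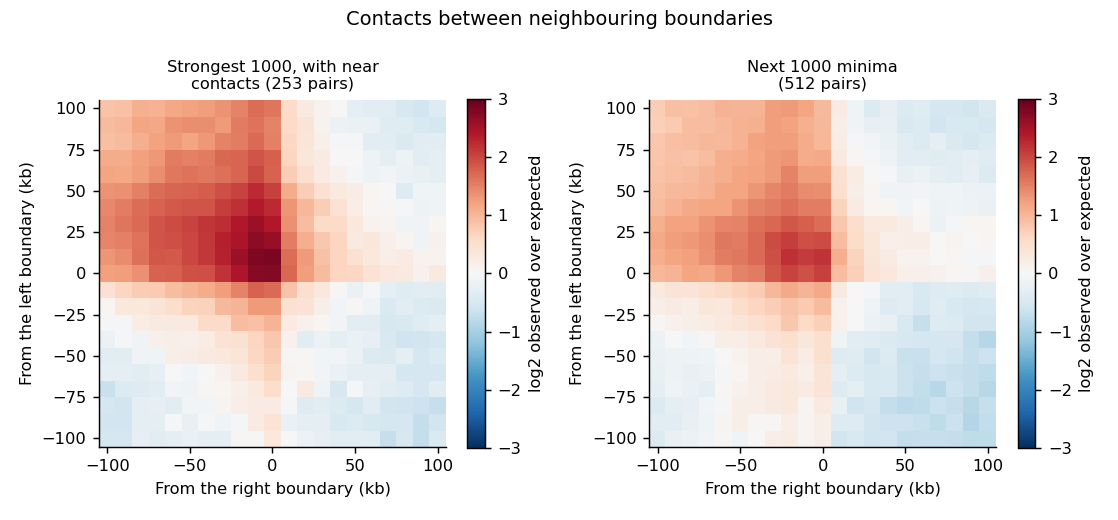
Contacts around the meeting point of neighbouring boundaries, summed over pairs, as log2 of observed over expected, with the distance from the left boundary on the y axis and from the right boundary on the x axis (kb, inside the domain at the upper left). Both maps are high at the centre, 6.75 times expected for the boundaries with near contacts and 4.13 times for the next 1000 minima, with slightly higher values just inside it (7.05 times at 10 kb from the left boundary in the former, 4.56 times at 10 kb from the left and 20 kb from the right boundary in the latter), and both are higher inside than outside, where contacts 30 to 70 kb away were 0.854 and 0.702 of expected.

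Among the 20 pairs with 50 contacts or more, observed over expected contacts in the corner bin were highest between chr17:36460001-36470000 and chr17:37610001-37620000, 1150 kb apart, with 114 contacts where 1.02 were expected. They were counted as 35 in Lenti-GFP 1, 29 in Lenti-GFP 2, 26 in Lenti-AS 1 and 24 in Lenti-AS 2. On chromosome 19, the boundary at 44270001, whose eigenvector step was named above, and the boundary at 45930001 had 55 contacts where 0.497 were expected. They were counted as 19, 13, 12 and 11. All 4 boundaries had near contacts. The 3 pairs that followed, on chromosomes 4, 9 and 4, each had at least 1 minimum short of near contacts, with 114, 95 and 53 contacts where 1.35, 1.37 and 0.838 were expected. These raw counts are not set against depth, which is higher in both Lenti-GFP libraries.

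Between the groups, the corner contacts of all 509 pairs were compared with 1 value per library. With Lenti-GFP they were 4.00 and 3.90 times expected, and with Lenti-AS 3.95 and 3.99 times. The ranges overlapped, and the difference of 0.0195 was smaller than the SD of 0.0767 in Lenti-GFP (two-sided exact permutation p = 1, n = 2). At the next 1000 minima the values were 2.99 and 2.98 with Lenti-GFP against 2.94 and 2.96 with Lenti-AS, which did not overlap (exact permutation p = 0.33, two-sided, n = 2).

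Contacts with other chromosomes, or trans contacts, took no part in the choice of boundaries. Relative to the median bin of the chromosome, trans contacts had a median of 1.00 in the bins of the 657 boundaries with near contacts, 0.917 in the bins of the 115 minima short of them and 1.02 in the next 1000 minima. The bins directly beside the boundaries were lower: 0.862 at 10 kb to the left and 0.833 at 10 kb to the right of boundaries with near contacts, and 0.874 and 0.864 beside the next 1000 minima. At 100 kb to either side the values had returned to 1.02 and 1.04 for boundaries with near contacts. A bin is left out of its own window but counts in the windows of the bins beside it, and what this adds to the difference between a boundary bin and its neighbours was not tested.

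The strength of the boundaries was then followed in single libraries. Minima were called in each library by the same rule, with windows of at least 100 contacts in that library alone. Within 1 bin of the boundary, a local minimum was found again for 766 of the 1000 boundaries in Lenti-GFP 1, 817 in Lenti-GFP 2, 701 in Lenti-AS 1 and 688 in Lenti-AS 2. The library's own top 1000 held 723, 780, 659 and 633 of them in the same order. The order is that of depth, and 210, 168, 282 and 293 boundaries had fewer than 100 contacts in their window in these libraries. In all 4 libraries, 540 boundaries were in the top 1000, and 174 were in none, of which 172 had a window of under 100 contacts in at least 1 library. The libraries share these contacts with the sum that chose the boundaries, so the counts describe how much of the list a single library gives and are no independent repeat.

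Insulation at the boundaries was much alike in all libraries. Across the 1000 boundaries, its Pearson correlation was r = 0.978 between the Lenti-GFP libraries, r = 0.970 between the Lenti-AS libraries and r = 0.963 to 0.972 between libraries of different groups; boundaries are not replicates, and the libraries helped to choose them. The median size of the difference at a boundary was 0.10 between the Lenti-GFP libraries, 0.12 between the Lenti-AS libraries and 0.11 to 0.14 between groups.

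**Figure D4:**
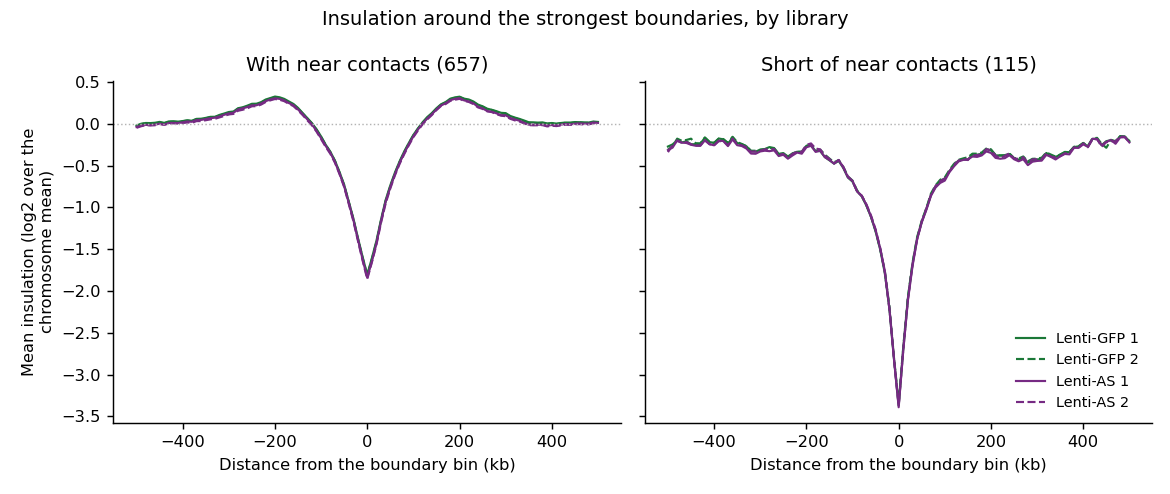
Mean insulation (log2 over the chromosome mean) by distance from the boundary bin (kb) in each library, for the 657 boundaries with near contacts (left) and the 115 minima short of them (right). All 4 lines fall together, to between -1.81 and -1.86 on the left and to between -3.34 and -3.39 on the right; on the left they lie above 0 at 200 kb (0.30 to 0.33), and on the right they stay below 0 there.

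The study asked whether Egr2-AS changes the folding of the genome, and the mean insulation of the boundaries was compared between the groups with 1 value per library. In Lenti-GFP it was -2.117 in library 1 and -2.114 in library 2, and in Lenti-AS it was -2.153 and -2.157. Both Lenti-AS libraries were lower, with slightly fewer contacts across the boundaries. The group means were -2.116 ± 0.00188 for Lenti-GFP and -2.155 ± 0.00257 for Lenti-AS, a difference of -0.0392 on the log2 scale that was larger than the spread between replicates (SD over 2 libraries). The two-sided exact permutation test gave p = 0.33, which no arrangement of 2 libraries against 2 can go below.

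The difference was about the same size at the next 1000 minima and smaller over all bins. In each library, insulation is set against the mean of the chromosome. The all-bins mean can therefore move only with the spread of the values, and its small difference follows in part from this scaling. At the next 1000 minima insulation was -1.189 and -1.196 in Lenti-GFP and -1.228 and -1.240 in Lenti-AS, a difference of -0.0412, and over all bins the difference was -0.00614. At the 657 boundaries with near contacts it was -0.0409, and at the 115 minima short of them -0.0246, with values of -3.370, -3.341, -3.390 and -3.370 that nearly met between the groups. The contacts of the 2 deeper Lenti-GFP libraries weigh more in the sum by which the boundaries were chosen. With every library thinned to 61347179 cis contacts the difference at the 1000 boundaries was -0.0373, and with contacts across divided by the contacts inside both flanks it was -0.0414. Over all bins these differences were -0.00577 and -0.0141, and only the latter measure is not set against the chromosome mean.

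**Figure D5:**
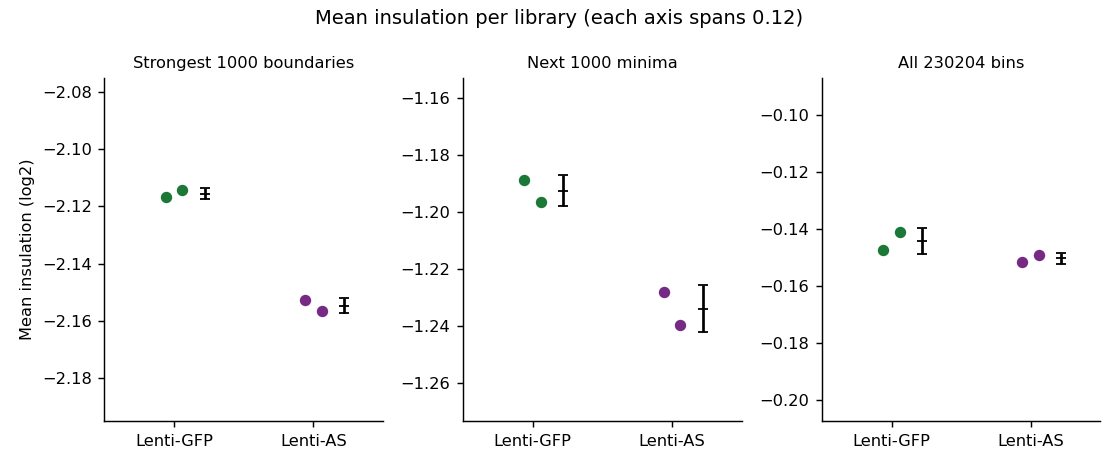
Mean insulation (log2) in each library (points) with the group mean and SD (bar to the right of the points, n = 2) for the 1000 boundaries, the next 1000 minima and all 230204 bins; the 3 axes start at different values and each spans the same range. Both Lenti-AS libraries lie below both Lenti-GFP libraries, by -0.0392 at the boundaries, -0.0412 at the next 1000 minima and -0.00614 over all bins. The all-bins values are held close together in part by the division by the chromosome mean.

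The contacts across the boundaries beyond the window moved the same way. At 410 kb to 1 Mb, the median over the 1000 boundaries was 0.594 and 0.595 of expected with Lenti-GFP, against 0.575 and 0.574 with Lenti-AS. Beyond 1 Mb and up to 2 Mb it was 0.704 and 0.70 with Lenti-GFP, against 0.686 and 0.673 with Lenti-AS. The groups did not overlap at either distance (exact permutation p = 0.33 at each, two-sided, n = 2). The next 1000 minima went from a mean of 0.651 in Lenti-GFP to 0.638 in Lenti-AS at 410 kb to 1 Mb, and from 0.626 to 0.608 beyond 1 Mb, also without overlap. Values over all bins were not computed for single libraries at these distances. Across the 115 minima short of near contacts, the libraries of the groups overlapped at both distances, with 0.778, 0.772, 0.779 and 0.749 at 410 kb to 1 Mb.

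At single boundaries, both Lenti-AS libraries were below both Lenti-GFP libraries at 286 (28.6%) and above both at 146 (14.6%). Over all bins these shares were 27.5% and 26.7%. The share of boundaries with lower Lenti-AS values was thus near the background, and that with higher values was below it. Among the next 1000 minima the shares were 33.9% and 14.6%. The windows of the boundaries held fewer contacts than those of most bins, and the part of counting error in these shares was not tested.

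The contacts crossing each bin were tested with the quasi-likelihood test of edgeR over 230204 bins, with the total of each chromosome as offset and Benjamini-Hochberg adjustment. Of the 1000 boundaries, 24 (2.4%) had fewer crossing contacts in Lenti-AS at an adjusted p below 0.05 and 7 (0.7%) had more. Over all bins, 6.52% were lower and 5.39% were higher, so that in this fit the share called was smaller among the boundaries than in the background. That order turned with limma on the insulation values, which called 35 of the 1000 boundaries and 1.85% of all bins. The limma fit took no account of the number of contacts in a window. In it 315 of the 1000 boundaries had an unadjusted p below 0.05, beside 119 in the edgeR fit. The fit against the flanks, given further on, called 1 boundary, too few for the shares to be ordered. In the edgeR fit against the chromosome total, 3.52% of 13182 bins with windows of 431 to 1139 contacts, the quartiles of the boundaries, were called in either direction. Among all 1000 boundaries it was 3.1%. Their windows held from 100 to 1916 contacts, so that the 2 shares are not fully matched for depth. The count of 31 called boundaries was 5 without Lenti-GFP 1, 10 without Lenti-AS 1 and 2 without Lenti-AS 2, and DESeq2 called 0, with 12 at an unadjusted p below 0.05. The median log2 fold change over the boundaries was -0.03, with 617 of 1000 below 0, beside 0.00 and 49.8% over all bins. The shift was not particular to the boundaries: over the next 1000 minima the median was -0.05, with 647 below 0. Of those minima, 38 were called lower and 10 higher in Lenti-AS. With the chromosome total as offset, the fit itself keeps the median over all bins near 0.

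The lowest p on the list was that of the minimum at chr12:36250001-36260000, where insulation was -2.38 and -2.25 with Lenti-GFP but -3.64 and -3.81 with Lenti-AS. The groups were far apart, on 37 and 45 crossing contacts in Lenti-GFP and 11 and 9 in Lenti-AS. The log2 fold change was -1.40 (edgeR adjusted p = 0.000909). It was short of near contacts (0.0390 of expected) and had 17 left-out bins in its window, and with the contacts inside its flanks as offset its log2 fold change was -1.06 (edgeR adjusted p = 0.223).

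Of the other boundaries with the lowest p, 2 were also lower in Lenti-AS. At chr9:13010001-13020000 insulation was -1.59 and -1.84 in Lenti-GFP and -2.07 and -2.13 in Lenti-AS (log2 fold change -0.39, edgeR adjusted p = 0.00383). At chr5:170740001-170750000 it was -2.49 and -2.33 in Lenti-GFP and -2.86 and -2.92 in Lenti-AS (log2 fold change -0.48, edgeR adjusted p = 0.00551). The groups did not overlap at either, and both had near contacts, at 0.321 and 0.187 of expected. With the contacts inside the flanks as offset, the log2 fold changes were -0.24 (edgeR adjusted p = 0.403) on chromosome 9 and -0.12 (edgeR adjusted p = 0.848) on chromosome 5.

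The 3 boundaries with the lowest p that were higher in Lenti-AS all had near contacts as well. At chr13:67590001-67600000 insulation was -2.75 and -2.68 in Lenti-GFP and -2.02 and -2.40 in Lenti-AS (log2 fold change 0.52, edgeR adjusted p = 0.00379). This boundary also lay at an eigenvector step, from -1.07 on its left to 1.05 on its right. At chr19:2390001-2400000 the values were -1.58 and -1.59 against -1.35 and -1.26 (log2 fold change 0.28, edgeR adjusted p = 0.0186). At chr6:137410001-137420000, with 16 left-out bins in its window, they were -1.83 and -1.96 against -1.26 and -1.44 (log2 fold change 0.55, edgeR adjusted p = 0.0239). Against the flanks the log2 fold changes of these 3 were 0.51, 0.21 and 0.72, with edgeR adjusted p of 0.123, 0.388 and 0.0859.

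The calls depended on what the crossing contacts were set against. With the contacts inside the left and right flank of the same bin as offset, 1 of the 1000 boundaries was called, lower in Lenti-AS, and 0 were higher, while 97 had an unadjusted p below 0.05, beside 21544 of all 230203 bins tested, which is close to the same share. Over all bins, 0.0426% were lower and 0.00174% were higher in that fit. The log2 fold change was below 0 at 63.8% of the boundaries and 58.4% of all bins, with medians of -0.05 and -0.01, so that the shares, though not the medians, lay closer together than against the chromosome total. Among the next 1000 minima 67.7% were below 0, with a median of -0.05. The called boundary was chr10:37770001-37780000, with insulation of -1.32 and -1.40 in Lenti-GFP and -1.56 and -1.78 in Lenti-AS. Its log2 fold change was -0.38 (edgeR adjusted p = 0.0342) against the flanks and -0.30 (edgeR adjusted p = 0.00964) against the chromosome. It had near contacts, at 0.586 of expected, and no left-out bin.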

How the data were processed

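HiC-Pro was run by the authors, who deposited for every library a matrix of raw contact counts between bins of 10 kb. The balanced signal of each group, merged and corrected (ICE) by the authors, was used only for an alternative choice of boundaries. The build is rn6 (Rnor_6.0) per the labels, and positions count from 1. Boundaries were chosen on the summed counts as described above, with Python 3.11.15, NumPy 2.4.6 and SciPy 1.17.1. Mean contacts by distance over used bins of a chromosome gave the expected number, and the eigenvector was computed after 30 rounds of balancing, leaving out bins of 100 kb with fewer than 5 of 10 used bins. Crossing counts were tested with edgeR 4.0.16 (quasi-likelihood, group as the only term, all bins with at least 100 contacts); DESeq2 1.42.0 and limma 3.58.1 were alternatives. Values with 1 number per library were compared with two-sided exact permutation tests, whose smallest p is 0.33. On simulated data with 200 changed bins among 230204, edgeR recovered 79.0%, 96.5% and 99.5% of changes of 1.25, 1.5 and 2 fold in the crossing contacts. Of its calls, 3.66%, 2.03% and 5.69% were false. The changed bins were drawn from all bins, with a median window of 2993 contacts, beside 820 at the boundaries. Counts of neighbouring bins were drawn independently, though real windows overlap. Recovery at the boundaries was not tested.

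Named regions were the 10 boundaries of highest prominence without and the 3 with a left-out bin, those at the end of the list, the 3 with the lowest p in each direction, those called against the flanks, the 5 largest eigenvector steps and the 5 pairs with the highest corner contacts. The boundaries, classes and comparisons were chosen with earlier results of these data known. Alternatives were the window, the filter, balancing, thinning, the offset, the tool, the replicate block and each library left out. Genes, promoters and motifs were left out because the reference tables are of another build. The libraries held 70488877 to 110770015 contacts, and counting error was not separated from other differences between them.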

Additional observations from a re-analysis of the deposited data

How the results depend on the processing

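The choice of boundaries depended mostly on the window: of the 1000 boundaries, 492 were chosen again with windows of 10 bins and 479 with windows of 40 bins. Under the other planned settings (distance-expected contacts, a balanced sum, a filter at 0.5 of the median, thinned libraries) between 739 and 935 were chosen again, with 1 library left out between 917 and 937, and in the balanced matrices of the authors 771 in Lenti-GFP and 755 in Lenti-AS. The use of those matrices, and of boundaries with near contacts alone, was decided after seeing the data. Median spacing was 1940 kb with windows of 40 bins and 4415 kb between boundaries with no left-out bin, since fewer boundaries then remain.

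Of the 1000 boundaries, 31 had changed crossing contacts, against 1 with flank contacts as offset, 0 with DESeq2 (12 at an unadjusted p below 0.05) and 8 with windows of 10 bins. With 1 library left out the count ran from 2 to 36: it was 5 without Lenti-GFP 1, 10 without Lenti-AS 1 and 2 without Lenti-AS 2. A group then has 1 library, assumed to vary like the other. limma called 35, of which 20 were among the 31, and the fit without a minimum of contacts 31, of which 30 were. Of the 36 called without Lenti-GFP 2, 18 were among the 31. All 31 kept the direction of their fold change with DESeq2, limma, the block and each library left out, 30 with flank contacts as offset and 24 with windows of 10 bins, under which 797 boundaries were tested. Over all bins, 27430 were called, against 102 with flank contacts, 1132 with DESeq2 (adjusted p not given for 4464 bins), 4263 with limma, 10095 with windows of 10 bins and 4665 to 27348 with 1 library left out. The cause of these differences was not tested.

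The replicate numbers are not said to pair the libraries, and the replicate 1 minus replicate 2 differences of the groups correlated at r = 0.116 over bins. With a replicate block, 42 boundaries and 39065 bins were called, and the paired difference in mean insulation was -0.0392 (-0.0361 and -0.0424 by number, smallest two-sided exact p = 0.5). This difference was -0.0525 over boundaries with no left-out bin and -0.0411 to -0.0374 with 1 library left out; it was negative under every alternative run.

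The share of boundaries with an eigenvector sign change was 35.8% with flanks of 1 bin and 32.8% with flanks of 5 bins, 32.4% without left-out bins, 39.0% with near contacts alone and 34.4% to 34.8% with 1 library left out. All bins had 11.8% and 19.6% with flanks of 1 and 5 bins. Corner contacts were 5.10 times expected between boundaries with no left-out bin, 4.79 times between neighbours that both had near contacts, 3.77 times with the cis contacts of both bins in the expected number, 4.01 times up to 1 Mb and 3.94 to 3.98 times with 1 library left out. Planned shares of boundaries with transcription starts, CTCF motifs and listed genes nearby were not run. Values of single boundaries rest on few contacts: their windows held medians of 161 to 262 contacts in a library.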
